A study of Mus musculus with 10 samples.

Results

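The NRF2 antioxidant response genes described here are 10 genes, taken by name from the expression table of 10 mouse tumors, which lists 21959 genes. They are the transcription factor gene Nfe2l2 (encoding NRF2), its inhibitor Keap1, and 8 genes of enzymes that NRF2 is known to induce, namely Hmox1, Nqo1, Gclc, Gclm, Txnrd1, Srxn1, Gsr and Prdx1. All 10 were found in the table, and all 10 passed the filter on low counts. The tumors had formed from 4T1 cells, a mammary carcinoma line of the mouse, placed under the skin of the abdomen of female BALB/c mice, which were 5 to 6 weeks old when obtained and kept their immune system. The exercise group (E) had free access to running for 21 days, the non-exercise group (NE) was kept under normal husbandry, and 1 tumor from each of 5 mice per group was sequenced. All 10 mice thus carried tumors of 1 cell line, and no group without a tumor was included. Whole pieces were sequenced, so that fewer cells of a type and less RNA per cell cannot be told apart.

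NRF2 is a transcription factor that is degraded in resting cells, because KEAP1 binds it and hands it to a ubiquitin ligase. Electrophiles and oxidants modify cysteines of KEAP1, so that NRF2 accumulates, pairs with a small MAF protein and binds antioxidant response elements of its target genes. Much of this regulation acts on the protein, and the mRNA of Nfe2l2 and Keap1 need not follow it. The targets make glutathione, reduce it and thioredoxin, remove peroxides, and break down heme and quinones. In carcinomas the pathway is known for protection from oxidative stress and drugs.

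The antioxidant response element has the core TGACNNNGC. RefSeq promoter windows (GRCm38.p6, 250 bases before to 50 after a start of transcription) were at hand for 7 of the 10 genes, Nfe2l2, Keap1, Nqo1, Gclm, Txnrd1, Srxn1 and Prdx1. The core was searched on both strands and occurred in a window of 5 of these 7 genes (71.4%), against 3781 of 27025 genes (14%) in the whole table of windows and 15 of 68 (22.1%) in the further pathway genes described below. The matches are printed since these genes are regarded as targets of 1 factor, each 5′ to 3′ on the strand on which the core reads TGACNNNGC, with the core in capitals.

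Nfe2l2 (chr2:75704879-75704913, minus strand): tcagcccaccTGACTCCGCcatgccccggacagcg

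Gclm (chr3:122245407-122245447, minus strand): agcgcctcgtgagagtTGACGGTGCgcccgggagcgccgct

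Txnrd1, the second of its 3 windows (chr10:82859098-82859138, minus strand): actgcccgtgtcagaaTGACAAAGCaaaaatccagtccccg

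Srxn1 (chr2:152105536-152105573, minus strand): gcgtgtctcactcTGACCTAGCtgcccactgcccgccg

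Prdx1 (chr4:116685450-116685490, minus strand): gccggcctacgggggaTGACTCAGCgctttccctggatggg

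The match of Prdx1 also contains TGACTCA, the motif of the AP-1 factors, so that these letters fit both. The match of Srxn1 lay after the start of transcription, and the other 4 lay before it. No match was found in the windows of Keap1 and Nqo1, which says nothing of elements farther away. The letters are a description and were not tested as binding sites.

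In GRCm38 (GENCODE vM21) Nfe2l2 spans chr2:75675513-75704641 (minus strand, up to 5 exons), Keap1 chr9:21229730-21239361 (minus, 6), Hmox1 chr8:75093621-75100589 (plus, 5), Nqo1 chr8:107388225-107403206 (minus, 6) and Gclc chr9:77754535-77794485 (plus, 16). Gclm spans chr3:122245557-122270732 (plus, 8), Txnrd1 chr10:82833951-82897712 (plus, 15), Srxn1 chr2:152105516-152111376 (plus, 2), Gsr chr8:33652523-33698163 (plus, 13) and Prdx1 chr4:116685544-116700822 (plus, 6). Of the stretches of 50 bases in the transcripts, 8.29% of Prdx1 and 3.92% of Gclm also occur in transcripts of other genes, and reads from these stretches could have been assigned elsewhere. The other 8 genes share none. Eid3, which lies within Txnrd1 on the same strand, had 4 to 15 reads per tumor, against at least 4627 for Txnrd1.

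The read totals over genes were 15045613 to 20646763 in the E tumors and 18706032 to 23092251 in the NE tumors. The 10 genes had 102 to 17548 reads per tumor, with the fewest for Nqo1. Several libraries stood apart in marker genes of other cell types. The 12 skeletal muscle markers summed to 30354 CPM (read counts scaled to the size of the library) in non-exercise replicate 4 and to 6.16 to 4235 in the other 9 tumors. Exercise replicate 5 had 312 CPM of the 8 neutrophil markers and 15456 of the 8 fibroblast markers, against 15.3 to 54.7 and 988 to 5059 elsewhere. Non-exercise replicate 1 had the lowest sums of macrophage or monocyte (1277 CPM), fibroblast (988), neutrophil (15.3), skeletal muscle (6.16) and adipocyte (8.45) markers. In the other marker lists it was not the lowest. Epithelial markers, which a carcinoma is expected to carry, were low in all 10 tumors. The FPKM of Epcam was 0.244 to 1.41, Krt8 had 0 to 27 reads and Cldn4 0 to 7, while Krt19 (157 to 498 reads) and Cdh1 (144 to 434) were present throughout. All 8 together summed to 20.5 to 29.6 CPM in E and to 25.995 to 48.9 in NE. Of the 4 that were tested, Epcam (log2 fold change -1.01, unadjusted p = 0.0252) and Krt19 (-0.65, unadjusted p = 0.00777) were lower in E. Neither was called (adjusted p = 0.897 for both by edgeR). Cdh1 (log2 fold change 0.16, unadjusted p = 0.652 by edgeR) and Cldn7 (0.083, unadjusted p = 0.815) went the other way. The part of 4T1 cells in the pieces was not measured otherwise.

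The level of the genes was compared first, as FPKM, a read density per gene length and library size. Prdx1, a peroxiredoxin that reduces hydrogen peroxide and one of the abundant proteins of most cells, was by far the highest, with 234 ± 20.9 FPKM (SD over 10 tumors), more than 98.9% of the genes tested. Hmox1 (59.3 ± 16.4), Gsr (59.1 ± 5.84), Nfe2l2 (54.5 ± 5.53) and Txnrd1 (44.4 ± 3.72) followed. Srxn1 had 24.2 ± 2.23 FPKM, Keap1 12.8 ± 1.08, Gclc 11.9 ± 0.998, Gclm 7.62 ± 0.435 and Nqo1 6.14 ± 1.11. Every tumor had the same order in the steps from Prdx1 to Hmox1, from Txnrd1 to Srxn1, from Srxn1 to Keap1 and from Gclc to Gclm. Hmox1 was above Gsr in 4 of 10 tumors, Gsr above Nfe2l2 in 7, Nfe2l2 above Txnrd1 in 9, Keap1 above Gclc in 8 and Gclm above Nqo1 in 9. Hmox1 and Gsr therefore did not differ beyond their spread.

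**Figure D1:**
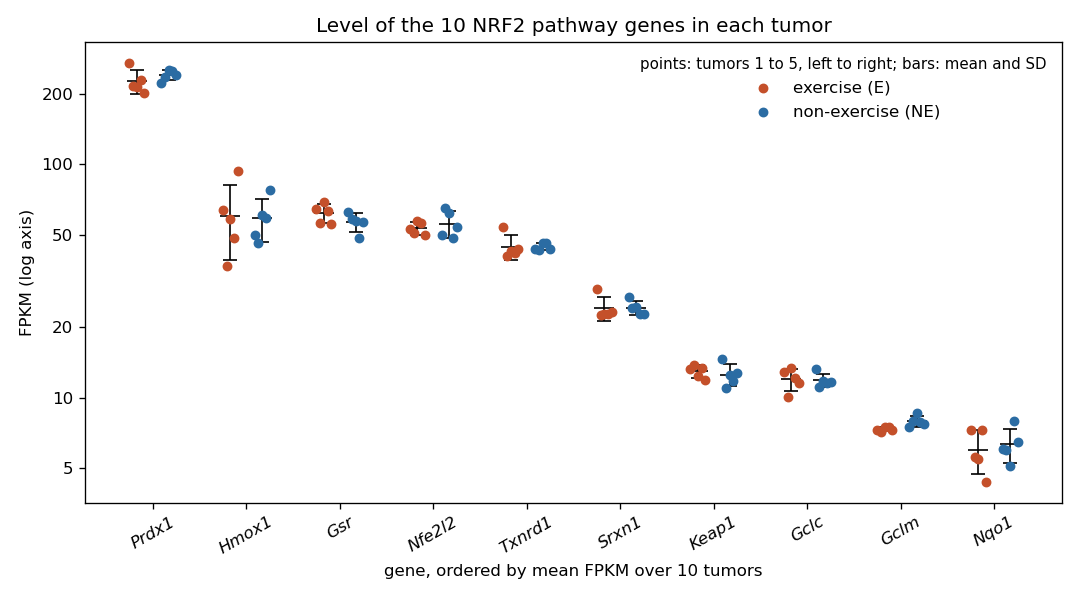
FPKM on a log axis of the 10 genes in 5 tumors of the exercise group (E) and 5 of the non-exercise group (NE), with each tumor as a point and the mean and SD as bars. E and NE overlap for every gene, Prdx1 lies at 203 FPKM or more in all tumors, and Hmox1 spreads from 36.5 to 93.2.

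The comparison of E with NE asked whether voluntary running went with another level of the antioxidant genes in the tumor. It did not at the threshold used. A call needed a 2-fold change and an adjusted p no higher than 0.05 in edgeR (quasi-likelihood test, Benjamini-Hochberg adjustment). None of the 10 genes met this, nor did any of the 13517 genes tested (0%), and DESeq2 and limma-voom called none either. The 10 log2 fold changes lay between -0.15 (Gclm) and 0.095 (Gsr), with a median of -0.036, against -0.014 over all genes tested. All 10 differed from 0 by less than 0.2, as did 77.0% of the genes tested. The 95% interval of the fold change lay within 0.699 to 1.43 for each of the 10, so that a 2-fold difference was outside the interval of every gene. The log2 fold change was below 0 in 8 of the 10 genes, as in 54.0% of all genes tested. When libraries were scaled by the total count alone it was below 0 in 6, with Hmox1 and Gclc above 0, and in 4 with the total count as a covariate. An unadjusted p of at most 0.05 was found for 1 of 10 genes (Gclm), against 657 genes in all (4.86%). The groups overlapped in all 10 genes, while 98 of the genes tested (0.725%) had no overlap.

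**Figure D2:**
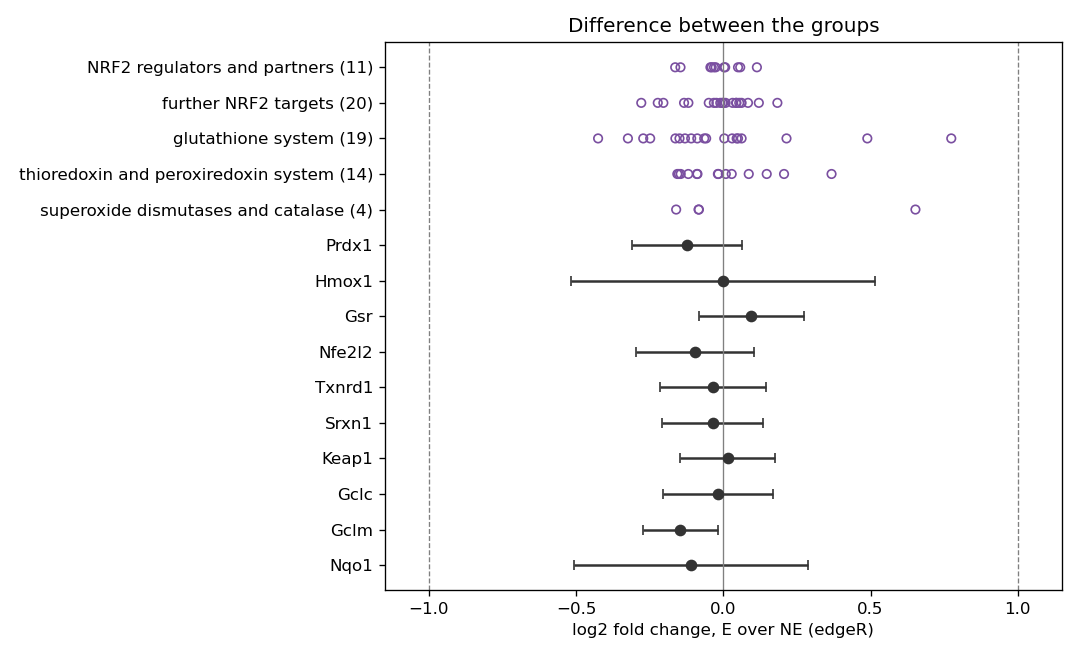
Log2 fold change of E over NE by edgeR, with 95% intervals for the 10 genes (filled) and without for the tested genes of the 5 pathway lists (open circles, number in parentheses). All 10 intervals lie inside the dashed lines of a 2-fold change, and the interval of Gclm (-0.27 to -0.020) is the one that does not reach 0.

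Of the sensor pair, Nfe2l2 had an FPKM of 52.8, 50.6, 57.1, 56.2 and 49.6 in exercise replicates 1 to 5 and of 49.8, 65.0, 61.8, 48.4 and 53.8 in non-exercise replicates 1 to 5. The highest and the lowest of the 10 tumors both belonged to NE, and the values of E lay between them, with a log2 fold change of -0.096 (standard error 0.091, adjusted p = 0.897 by edgeR). Keap1 had 13.3, 13.9, 12.4, 13.4 and 11.9 FPKM in E and 14.7, 11.05, 12.6, 11.8 and 12.8 in NE. Again NE held both ends, and the log2 fold change was 0.014 (standard error 0.072, adjusted p = 0.983). Between 3.39 and 5.88 times as much Nfe2l2 as Keap1 was measured per length, with a mean ratio of 4.12 ± 0.355 for E and 4.51 ± 0.943 for NE (SD over 5 tumors). Both ends of the ratio were non-exercise tumors, replicate 2 with the highest Nfe2l2 and the lowest Keap1, and replicate 1 with the highest Keap1.

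Glutathione is made in 2 steps, of which glutamate-cysteine ligase takes the first and limiting one. Its catalytic subunit Gclc had 12.8, 10.1, 13.3, 12.2 and 11.5 FPKM in E and 13.2, 11.2, 11.8, 11.6 and 11.7 in NE. The range of E enclosed that of NE, with a log2 fold change of -0.018 (standard error 0.085, adjusted p = 0.982). Gclm, the modifier subunit that raises the affinity of the enzyme for glutamate, had 7.28, 7.09, 7.50, 7.46 and 7.28 FPKM in E and 7.48, 7.94, 8.60, 7.90 and 7.71 in NE. The groups met only at non-exercise replicate 1, and after TMM scaling 2 of 25 pairings had the E tumor higher. Means of Gclm were 7.32 ± 0.163 FPKM in E and 7.92 ± 0.417 FPKM in NE (SD over 5 tumors), with a log2 fold change of -0.15 (standard error 0.057, 95% interval -0.27 to -0.020). The unadjusted p was 0.0273 and the adjusted p 0.897 by edgeR, so that Gclm was not called and ranked 315 by p. Without non-exercise replicate 1 the groups did not overlap in Gclm, which follows from leaving out the tumor that made the overlap. The share of all genes without overlap was not computed for this omission, so that no separation can be read from it. The unadjusted p of Gclm stayed at or under 0.05 in 14 of 21 alternatives, with E lower in all 21. It was 0.0598 without TMM and 0.127 with the total count (log2) as a covariate, and E had the shallower libraries. Gclc exceeded Gclm per length in each tumor, by a ratio of 1.37 to 1.78.

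Gsr, the reductase that regenerates glutathione with NADPH, had 64.1, 55.9, 69.2, 63.3 and 55.6 FPKM in E and 62.5, 58.3, 57.4, 48.3 and 56.4 in NE. It had the largest positive difference of the 10, with E higher in 17 of 25 pairings and a log2 fold change of 0.095 (standard error 0.081, adjusted p = 0.897). The highest tumor was exercise replicate 3 and the lowest non-exercise replicate 4, and the log2 fold change of Gsr was 0.040 without the former and 0.056 without the latter. Non-exercise replicate 4 also had the most muscle markers. With these markers as a covariate the log2 fold change of Gsr was 0.11 (unadjusted p = 0.143 by edgeR). Whether muscle content has a part in the difference was not tested.

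Txnrd1, Srxn1 and Prdx1 of the thioredoxin branch were each highest in the same tumor. This did not hold for the whole branch, since Txn1, thioredoxin itself, had 208 FPKM in exercise replicate 1 and 242 in non-exercise replicate 3. Nor was it particular to the branch, since Taldo1 (92.6 FPKM) and Ftl1 (82.4 FPKM) were also highest in exercise replicate 1. Txnrd1, the selenoenzyme that reduces thioredoxin, had 53.7, 40.3, 42.4, 41.8 and 43.4 FPKM in E and 43.6, 42.9, 46.2, 46.0 and 43.4 in NE. Exercise replicate 1 was the highest of all 10 tumors, while replicates 2, 3 and 4 of E lay below all 5 of NE. Between the groups the log2 fold change was -0.035 (standard error 0.082, adjusted p = 0.954). Srxn1, sulfiredoxin, which repairs over-oxidized peroxiredoxins, had 29.2, 22.6, 22.7, 22.8 and 23.3 FPKM in E and 27.0, 24.2, 24.5, 22.8 and 22.7 in NE. Exercise replicate 1 was again the highest. The log2 fold change of Srxn1 was -0.037 (standard error 0.078, adjusted p = 0.951), and it was -0.11 without this tumor. The TMM-scaled values of the groups then no longer overlapped, while the FPKM still did. The nearest values, as log2(CPM + 1), were 6.0448 in exercise replicate 3 and 6.0476 in non-exercise replicate 5. The tumor left out was the one that made the overlap, and the share of all genes without overlap was not computed for this omission. No separation of the groups can therefore be read from it. Prdx1, the substrate of sulfiredoxin, had 271, 216, 214, 229.8 and 203 FPKM in E and 224, 237, 253, 251 and 242 in NE. Here too exercise replicate 1 was the highest tumor, while the next 4 were all of NE. For Prdx1 the log2 fold change was -0.12 (standard error 0.085, adjusted p = 0.897), and without exercise replicate 1 it was -0.19 (unadjusted p = 0.0149, adjusted p = 0.838 by edgeR).

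Hmox1 encodes heme oxygenase 1, which breaks heme down to biliverdin, carbon monoxide and iron, and which macrophages also make in quantity. It had 63.8, 36.5, 58.1, 48.3 and 93.2 FPKM in E and 49.9, 46.0, 60.5, 58.9 and 77.8 in NE. The highest and the lowest tumor both belonged to E, replicates 5 and 2, and differed 2.55-fold, more than for any other of the 10 genes. The means were 60.0 ± 21.3 FPKM for E and 58.6 ± 12.3 for NE (SD over 5 tumors), with a log2 fold change of -0.0020 (standard error 0.23, adjusted p = 0.999). Without exercise replicate 5 it was -0.21, and without exercise replicate 2 it was 0.14. Exercise replicate 5 was also the tumor with the most neutrophil and fibroblast markers. Its 12 macrophage or monocyte markers summed to 4183 CPM, within the 1277 to 4501.6 of the other tumors. Nqo1, a reductase of quinones and a common readout of NRF2, had 7.24, 5.56, 5.44, 7.29 and 4.37 FPKM in E and 6.05, 5.96, 5.07, 7.97 and 6.44 in NE. The lowest tumor was exercise replicate 5 and the highest non-exercise replicate 4. The log2 fold change of Nqo1 was -0.11 (standard error 0.18, adjusted p = 0.943).

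The spread between tumors of the same group differed among the genes. The within-group SD of log2(CPM + 1) was 0.070 for Gclm, and 4.99% of the 2603 genes with a similar level (within 0.5 on the log2 scale) had a smaller one. For Keap1, Srxn1, Txnrd1, Gsr, Gclc, Prdx1 and Nfe2l2 it lay between 0.11 and 0.15, under the 0.18 that was the median of all genes tested, most of which were less abundant. Among genes of their own level, however, those with a smaller SD made up 35.4% for Keap1, 43.6% for Gclc and 45.1% for Srxn1, and 54.2% for Gsr, 54.3% for Txnrd1, 55.3% for Prdx1 and 65.4% for Nfe2l2. Nqo1, the gene with the fewest reads, had 0.26, and 60.4% of the genes of its level had a smaller SD. Hmox1 had 0.41, and 96.3% of the 2057 genes of its level had a smaller SD. The SD was larger in E than in NE for Txnrd1 (0.16 and 0.074), Srxn1 (0.16 and 0.071) and Gclc (0.17 and 0.074). It was smaller in E for Nfe2l2 (0.11 and 0.18) and Gclm (0.049 and 0.086), and none of these differences was tested. In Txnrd1 exercise replicate 1 had a log2(CPM + 1) of 8.56, against 8.13 to 8.26 in the rest of E. In Srxn1 it had 6.37, against 5.98 to 6.04. The larger SD of E in these genes therefore rested on 1 tumor, and the SD without it was not computed. Exercise replicate 2 was the lowest of the 10 tumors in FPKM for 5 of the 10 genes (Hmox1, Gclc, Gclm, Txnrd1 and Srxn1), and exercise replicate 1 was the highest for 3 (Txnrd1, Srxn1 and Prdx1).

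**Figure D3:**
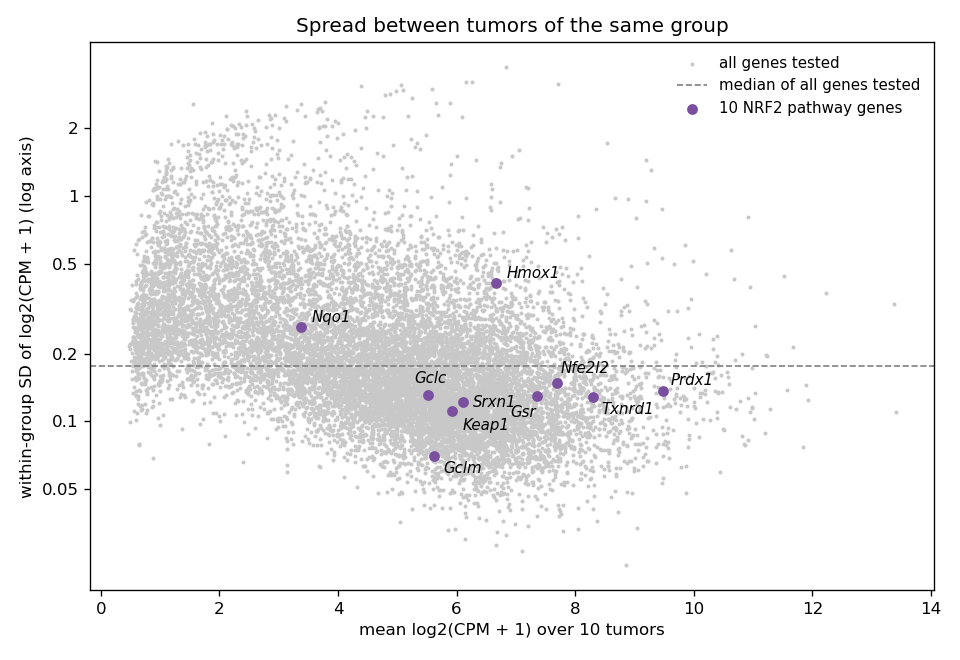
Within-group SD of log2(CPM + 1) on a log axis against the mean level over 10 tumors, for all 13517 genes tested (grey) and the 10 genes (purple). Gclm (0.070) lies low, Hmox1 (0.41) lies above most genes of its level, and the other 8 genes lie among the genes of their own level.

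The 45 pairs of the 10 genes were then compared across the 10 tumors. Pearson's r of log2(CPM + 1) ranged from -0.51 to 0.83 with a median of 0.22, against a median of -0.0036 over all pairs of genes tested. In 32 of 45 pairs r was above 0, but the pairs share the same 10 genes and are not independent. The share of all pairs of genes with r above 0 was not computed. Without exercise replicate 2 the median r of the 45 pairs was 0.097. The pair with the highest r was Txnrd1 and Prdx1, the reductase of thioredoxin and a peroxidase that thioredoxin serves (r = 0.825, permutation p = 0.00152, adjusted over 45 pairs 0.0684; Spearman's rho = 0.891, permutation p = 0.00109, adjusted 0.049). Without exercise replicate 1 and non-exercise replicate 4 its r was 0.684, and r of the deviations from the group means was 0.853. Txnrd1 and Srxn1 followed (r = 0.756, permutation p = 0.0161, adjusted 0.363; rho = 0.758, permutation p = 0.0151, adjusted 0.340), and r fell to 0.497 without the same 2 tumors. Nqo1 and Prdx1 had r = 0.699 (permutation p = 0.0243, adjusted 0.364; rho = 0.636, permutation p = 0.0550, adjusted 0.452), which became 0.353 without exercise replicate 5 and non-exercise replicate 4. No pair passed an adjusted p of 0.05 by r, 3 pairs had an unadjusted p of at most 0.05 by r, and 1 pair passed by rho.

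The lowest r was that of Nfe2l2 and Keap1 (r = -0.514, permutation p = 0.130, adjusted 0.731; rho = -0.333, permutation p = 0.350, adjusted 0.772), and it was -0.096 without non-exercise replicates 2 and 3. For both subunits of glutamate-cysteine ligase the value was close to the median of the pairs (r = 0.215, permutation p = 0.557, adjusted 0.902; rho = 0.103, permutation p = 0.786, adjusted 0.951). Without exercise replicates 2 and 3, r was -0.246. Of the 9 pairs with Nfe2l2, r was highest for Gclm (r = 0.637, permutation p = 0.05005, adjusted 0.444; rho = 0.685, permutation p = 0.0357, adjusted 0.439), and it was 0.345 without non-exercise replicates 2 and 3.

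**Figure D4:**
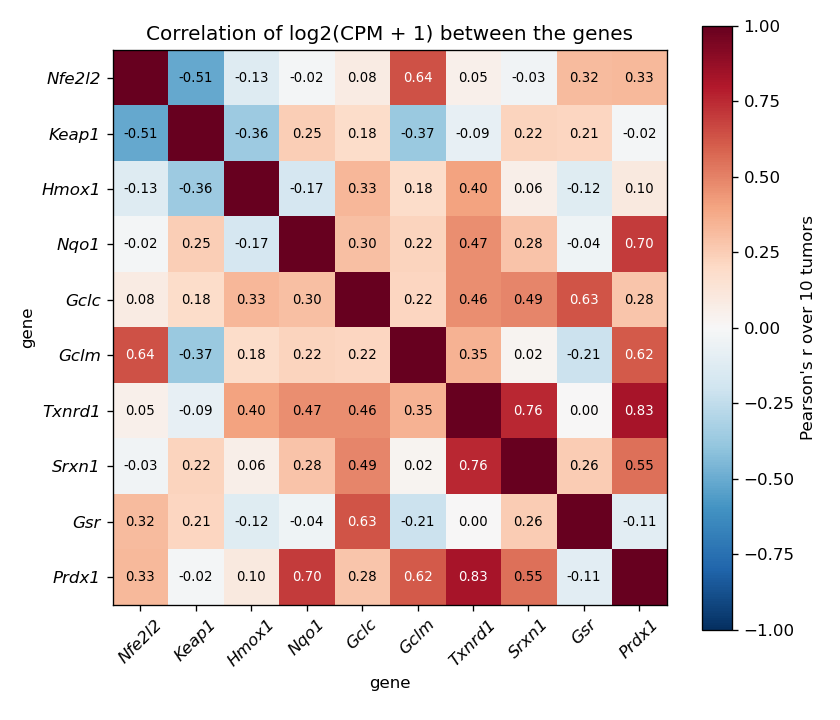
Pearson's r of log2(CPM + 1) over 10 tumors for each pair of the 10 genes, from blue (-1) through white (0) to red (1). The largest values join Txnrd1 with Prdx1 (0.83) and Srxn1 (0.76), while Nfe2l2 with Keap1 is the lowest (-0.51).

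**Figure D5:**
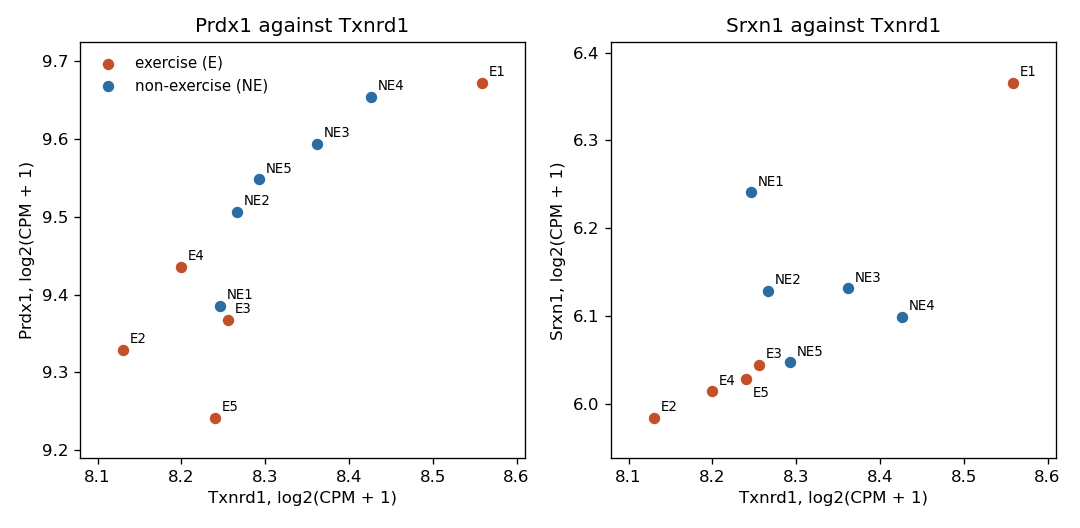
Prdx1 (left) and Srxn1 (right) against Txnrd1 as log2(CPM + 1), with each of the 10 tumors as a labelled point (E red, NE blue). Exercise replicate 1 has the highest value of all 3 genes, and r over all 10 tumors is 0.83 for Prdx1 and 0.76 for Srxn1.

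Each of the 10 genes was also set beside the summed markers of 10 cell types, 100 relations in all. None passed an adjusted p of 0.05 by r or by rho, and 4 had an unadjusted p of at most 0.05 by r. The lowest p was that of Hmox1 with the epithelial markers (r = 0.747, permutation p = 0.0141, adjusted 0.859; rho = 0.855, permutation p = 0.00281, adjusted 0.281), with r = 0.627 without exercise replicate 2 and non-exercise replicate 5. Hmox1 with the neutrophil markers had r = 0.677 (permutation p = 0.0331, adjusted 0.859; rho = 0.758, permutation p = 0.0151, adjusted 0.511), which fell to 0.395 without exercise replicate 5 and non-exercise replicate 1. Hmox1 with the macrophage or monocyte markers had r = 0.315 (permutation p = 0.371, adjusted 0.865; rho = 0.382, permutation p = 0.278, adjusted 0.772). The r of Prdx1 with the T or NK cell markers was 0.676 and that of Nfe2l2 with the endothelial markers -0.634 (adjusted permutation p = 0.859 for both).

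Genes outside these lists that were most like each member across the 10 tumors are given as a description, since they were picked as the best of all genes tested. They were Gxylt1 for Nfe2l2 (r = 0.964), Zfp786 for Keap1 (0.902), Dnajc4 for Hmox1 (0.944), Gng5 for Nqo1 (0.940) and Atg16l1 for Gclc (0.923). Arih1 was the closest to Gclm (r = 0.955), Fbxl5 to Txnrd1 (0.932), Parvb to Srxn1 (0.948), Nenf to Gsr (0.955) and Pomp to Prdx1 (0.946). For Srxn1 and Parvb r was 0.671 without the 2 tumors farthest from the median of Srxn1, and for the other 9 it was at least 0.753.

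A further 74 genes of the pathway were read from 5 lists, and 68 passed the filter. Their median log2 fold change was -0.021, none was called, and 1 gene higher and 2 lower in E had an unadjusted p up to 0.05, beside the 4.86% of all genes tested. Among 12 regulators and partners of NRF2, 11 were tested and none had an unadjusted p of at most 0.05. The lowest p was that of Sqstm1, the autophagy receptor that binds KEAP1, with 145 ± 13.4 FPKM for E and 157 ± 23.8 for NE (SD over 5 tumors, log2 fold change -0.15, standard error 0.10, adjusted p = 0.897). It was also the most abundant of this list, followed by the related factor Nfe2l1 (68.5 ± 6.73 and 68.3 ± 9.32 FPKM).

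Of 20 further targets none had an unadjusted p of at most 0.05, and 10 were above and 10 below 0. Fth1, the heavy chain of the iron store ferritin, was the most abundant, with 382 ± 62.1 FPKM for E and 361 ± 43.2 for NE (log2 fold change 0.044, standard error 0.12). Taldo1, an enzyme of the pentose phosphate pathway, which supplies NADPH, had 81.7 ± 6.99 and 86.7 ± 2.22 FPKM (log2 fold change -0.12, standard error 0.063). The lowest p was that of Me1, malic enzyme, another source of NADPH, with a log2 fold change of -0.22 (standard error 0.10, unadjusted p = 0.0556, adjusted p = 0.897 by edgeR).

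Of 24 genes of the glutathione system, 19 were tested, and 2 had an unadjusted p of at most 0.05, both lower in E. Glrx3, a glutaredoxin that handles iron-sulfur clusters, had 20.7 ± 0.533 FPKM in E and 22.6 ± 0.927 in NE (log2 fold change -0.16, standard error 0.054, unadjusted p = 0.0126, adjusted p = 0.897). After TMM scaling 1 of 25 pairings had the E tumor higher. Mgst3, a microsomal glutathione S-transferase, had 21.2 ± 1.07 and 27.7 ± 7.51 FPKM (log2 fold change -0.43, standard error 0.17, unadjusted p = 0.0271, adjusted p = 0.897), and its highest value, 40.5 FPKM, was that of non-exercise replicate 4, the tumor with the most muscle markers. The unadjusted p of Mgst3 stayed at or under 0.05 without this tumor and with the muscle covariate, and in 16 of 21 alternatives in all. Whether muscle content has a part in the difference of Mgst3 was not tested. Gpx4 (101 ± 8.02 and 105 ± 12.5 FPKM) and Gpx8 (81.4 ± 10.2 and 83.1 ± 12.3) were the most abundant of this list.

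All 14 genes of the thioredoxin and peroxiredoxin system were tested. Sesn1, a sestrin that restrains growth signaling under stress, was the one with an unadjusted p of at most 0.05. It had 13.3, 17.3, 17.3, 18.7 and 18.7 FPKM in E and 11.3, 17.5, 12.8, 10.8 and 12.3 in NE, so that 1 tumor of NE lay within the range of E and 3 of E within that of NE. E exceeded NE with a log2 fold change of 0.37 (standard error 0.14, unadjusted p = 0.0240, adjusted p = 0.897 by edgeR), a difference above 0 in all 21 alternatives and with an unadjusted p of at most 0.05 in 16. Txn1, thioredoxin itself, was the most abundant (201 ± 16.4 FPKM in E and 218 ± 14.9 in NE, log2 fold change -0.14, standard error 0.074), and Prdx6 followed (83.1 ± 6.61 and 82.3 ± 2.65). Among the superoxide dismutases and catalase none of 4 had an unadjusted p of at most 0.05. The lowest p was that of Sod1 (27.9 ± 1.81 and 28.9 ± 2.33 FPKM, log2 fold change -0.084, standard error 0.070, adjusted p = 0.897), and Cat had 28.2 ± 1.98 and 29.1 ± 3.37 FPKM.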

How the data were processed

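mRNA of 10 tumors (5 E, 5 NE) was sequenced in paired-end libraries. Per the methods, the authors used Hisat2 for alignment and Stringtie for expression, naming a rat assembly, although the table holds mouse Ensembl genes, and its build is not given in the sources used here. The authors deposited whole-number read counts, whose making is not described, and FPKM, which follow from those counts, the deposited gene length and the library total, without TMM. From the counts, edgeR 4.0.16 in R 4.3.3 (TMM, filterByExpr, glmQLFit, glmQLFTest, Benjamini-Hochberg adjustment) was fitted over all genes and had been tested on simulated data. Positive log2 fold changes mean higher in E, and intervals are the estimate with its standard error and the t distribution. Alternatives used DESeq2 1.42.0 and limma 3.58.1. Correlations used log2(CPM + 1) with TMM and 100000 permutations. Markers were summed as TMM-scaled CPM.

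The members, lists and alternatives were chosen with earlier results of these data known. Named are all members, the pathway genes with an unadjusted p of at most 0.05 (or the lowest p of a list), the 2 most abundant of each list, and the gene most like each member. Eid3, Epcam, Krt8, Cldn4, Cldn7, Krt19, Cdh1, Ftl1, Gpx1, Gpx3, Sod3 and Mgst1 were named after their values were seen. The paper describes the sequenced tumors as matched pairs, without saying how they were matched. Same-numbered tumors correlated in their deviations from the group means by -0.325 to 0.316, and the number was used as a block only as an alternative.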

Additional observations from a re-analysis of the deposited data

Results flagged for a closer look

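Within each group of 5 tumors, the highest or lowest value was set against its neighbour, and those separated by more than 0.71 of the range (Dixon's limit) follow. Of 40 groups of 5 values tested, 10 were past it, all on the high side, and several of the values come from the same tumors. Chance gives 2 for normally distributed values. FPKM and summed CPM were used without logs, for which that number need not hold, so that no excess over chance can be read from the count. Exercise replicate 1 stood apart in Txnrd1 (53.7 FPKM, next 43.4) and in Srxn1 (29.2 FPKM, next 23.3), and none of its marker sums was past the limit.

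The other 8 were marker sums. Exercise replicate 5 had 311.9 CPM of neutrophil, 15460 of fibroblast and 264 of endothelial markers, exercise replicate 2 had 4235 CPM of skeletal muscle markers, and non-exercise replicate 4 had 30350 of skeletal muscle and 115 of adipocyte markers. Non-exercise replicate 5 had 63.4 CPM of differentiated keratinocyte and 48.9 of epithelial markers. With the skeletal muscle sum as a covariate the log2 fold changes of the 10 genes ran from -0.15 (Gclm) to 0.11 (Gsr), and without both non-exercise replicate 4 and exercise replicate 5 no member had an unadjusted p of at most 0.05 by edgeR. For the other cell types the correlations given above were computed and no covariate was fitted.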

How the results depend on the processing

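In all 21 alternatives none of the 10 genes was called, and Nfe2l2 (-0.20 to -0.036), Gclm (-0.17 to -0.10), Gsr (0.035 to 0.17) and Prdx1 (-0.19 to -0.024) kept their direction. Nfe2l2 was -0.036 without non-exercise replicate 2 and -0.20 by limma-voom, Prdx1 was -0.19 without exercise replicate 1 and -0.024 with the total count covariate, and Gsr was 0.035 by limma-voom and 0.17 with that covariate. The direction of the other 6 rested on the setting. Hmox1 changed sign with DESeq2 (0.0022), its size factors (0.00081), the total count (0.032), no filter (0.00028) and the muscle covariate (0.00071). Gclc became 0.0065 by limma-trend on log2(FPKM + 1) and 0.011 by the total count. With the total count covariate Nqo1 was 0.088, Gclc 0.085, Txnrd1 0.041 and Srxn1 0.036, and without both non-exercise replicate 4 and exercise replicate 5 Nqo1 was 0.10, Gclc 0.00096 and Txnrd1 0.0020. Leaving out 1 tumor at a time gave -0.028 to 0.076 for Keap1, -0.21 to 0.14 for Hmox1, -0.19 to 0.0080 for Nqo1, -0.069 to 0.042 for Gclc, -0.11 to 0.00087 for Txnrd1 and -0.11 to 0.0060 for Srxn1.

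The 1 member with an unadjusted p of at most 0.05 became 0 by limma-trend, the total count, the total count covariate and without both tumors, and 3 by limma-voom with sample weights (Gclm, Nfe2l2 and Prdx1). It was 0 to 2 with 1 tumor left out, 0 without exercise replicates 2 or 5 or non-exercise replicate 3. The 3 pathway genes became 5 with DESeq2, no filter or the muscle covariate, 9 by limma-voom, 0 with the total count covariate, and 1 to 6 with 1 tumor left out. The share of all genes with such a p moved too, from 4.86% to 8.37% with the muscle covariate, 13.3% by limma-voom, 0.903% with the total count covariate and 2.73% to 9.90% with 1 tumor left out, while it was 4.77% by DESeq2 and 4.36% without a filter. They were 1 without exercise replicates 4 or 5, and 6 without exercise replicate 1 or non-exercise replicate 4. Members without overlap were 0 or 1, and the share of all genes was not computed with a tumor left out. The cause was not tested. With the replicate block, the log2 fold change of Gclm was -0.14 (unadjusted p = 0.0351 by edgeR), and the number of called genes was 0. The standard error of Hmox1 was then 0.126, against 0.233 in the main fit, and Mgst3 no longer had an unadjusted p of at most 0.05. The median r of the 45 pairs was 0.097 to 0.27 with 1 tumor left out.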

Other observations

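Several genes of the pathway lists varied far more between tumors than the 10 genes did. The extracellular enzymes Gpx3, a secreted glutathione peroxidase, and Sod3, a secreted superoxide dismutase, ranged from 1.72 to 129 and from 0.626 to 16.4 FPKM. Both were lowest in non-exercise replicate 1 and highest in exercise replicate 5, which also had the lowest (988 CPM) and the highest (15456 CPM) sum of the fibroblast markers. The same tumors had the lowest (15.3 CPM) and the highest (312 CPM) sum of the neutrophil markers. A relation of Gpx3 or Sod3 to these sums was not tested. Their log2 fold changes were 0.77 (standard error 0.90) and 0.65 (standard error 0.68) with adjusted p = 0.914 and 0.906 by edgeR. Mgst1, a microsomal glutathione S-transferase, ranged from 1.05 to 18.6 FPKM, with the lowest value in non-exercise replicate 1 and the highest in non-exercise replicate 4. The intervals of these 3 genes reached beyond a 2-fold change in each direction for Gpx3 and Mgst1 (-1.23 to 2.78 and -1.24 to 1.302) and upward for Sod3 (-0.85 to 2.15). A difference of that size in those directions was therefore not excluded. Without non-exercise replicate 4, Gpx3 had an unadjusted p of at most 0.05 by edgeR, as had 4.70% of all genes tested.

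Gpx1, the cytosolic glutathione peroxidase, had 10 to 24 reads per tumor (0.336 to 0.733 FPKM), while Gpx4 had at least 89.5 FPKM. No other gene of the table overlaps Gpx1, and none of its 50-base stretches occurs in a transcript of another gene of GENCODE vM21. Why so few reads were counted was not tested, and the value of Gpx1 is uncertain.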
